A study of Mus musculus with 7 samples.

Results

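The tumour necrosis factor (TNF) family was taken as the protein-coding RefSeq genes of the mouse whose symbol starts with Tnfrsf or Tnfsf, without Tnfrsf19, together with Tnf, Lta and Ltb. This gave 34 of 21627 protein-coding genes, and 170 of the 103809 accessible regions lay in a member's gene body or within 50 kb of a member that was the closest such gene. The regions came from ATAC-seq, in which a transposase cuts DNA where chromatin is accessible. The cells were sorted as Lgr5+ intestinal stem cells from intestine of female mice of the strain B6-GFP-Lgr5, aged 8 to 12 weeks, that had all been lethally irradiated and given a bone marrow transplant 7 days earlier. Syn recipients had a syngeneic transplant (3 libraries, labelled control), and Allo recipients had BALB/c marrow (4 libraries, labelled gvhd, for graft-versus-host disease). Both groups thus share irradiation and transplantation, and no library from mice without them was analysed here. Each library held 50000 cells pooled from 3 to 4 mice and was an independent sample, so the spread between libraries is a spread between pools. The sort rests on the Lgr5 reporter, and a library measures all cells that passed that gate: a change in the share of some cell type and a change in accessibility per cell cannot be told apart.

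Family ligands are mostly membrane proteins that act as trimers, anchored or shed, and bind receptors with cysteine-rich outer domains. Receptors with a death domain can bring FADD and caspase-8 together and start apoptosis, most other receptors bind TRAF adaptors and turn on NF-kappaB and MAP kinases, and decoy receptors bind ligand without passing on a signal. In the intestine the family is known for epithelial cell death and inflammation driven by TNF, for the RANKL signal that makes M cells, and for the ligands that activated T cells carry, among them those of the graft in graft-versus-host disease.

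The 7 peak lists held 62977 to 88861 peaks, and their read depth is unknown. Allo 3 and Allo 4 had the longest lists (88861 and 81719 peaks, against 71925 to 76438 in the Syn libraries) and the lowest background pileup, the read depth the peak caller set against a peak (3.28 and 3.05, against 4.65 to 5.34 in Syn and 4.46 in both other Allo libraries), and the names of their peaks follow a different pattern from those in the remaining 5 lists. No Syn library has names of that pattern, and whether it marks a batch is not given, so results are given for Allo 1 and 2 and for Allo 3 and 4 separately where they matter. All 8 stem cell markers looked at (among them Lgr5, Olfm4 and Ascl2) and all 5 epithelial markers had a peak at their start in all 7 libraries. Markers of leukocytes were mixed. Coro1a, Cd4, Cd79b, Cd14 and Spi1 had a peak at their start in all 7 libraries, and Vav1 and Itgam had 6 to 13 and 6 to 10 regions. In no library did Cd3d, Cd3g, Cd8a, Cd5, Cd79a or Lyz2 have a region, Cd3e had 1 region in each, and 9 of 10 T cell markers had no peak at their start. The 5 pan-haematopoietic markers together had 12 to 14 regions in the Syn libraries and 11, 13, 25 and 18 in Allo 1 to 4, and Ptprc, which encodes CD45, had 1, 2, 5 and 3 in Allo 1 to 4 against 2 in every Syn library. T cell markers had 9 to 10 regions in Syn and 9 to 14 in Allo libraries, B cell markers 1 to 2 and 1 to 3, myeloid markers 13 to 15 and 12 to 17, and stromal and endothelial markers 23 to 25 and 17 to 32. Per 10000 regions of the library, T cell markers had 1.45, 1.4 and 1.23 in Syn 1 to 3. They had 1.51, 1.53, 1.61 and 1.79 in Allo 1 to 4, which is more in every Allo library. On that scale the recipient types overlapped for pan-haematopoietic, B cell, myeloid, and stromal and endothelial markers. In the rank comparison described below, 1 region each of Vav1 and Lck was called higher and 1 of Adgre1 lower in Allo recipients, and among the stem cell and epithelial markers 1 region each of Ascl2, Rgmb and Vil1 was called higher. The shares called were 11.1% of 9 pan-haematopoietic, 14.3% of 7 T cell and 8.33% of 12 myeloid regions held by all libraries. They were 4.17% of 48 stem cell, 2.78% of 36 epithelial and 0% of 14 stromal and endothelial regions, against 2.9% of all regions. The part of other cell types in the results below was not tested.

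To show what the open and closed gene starts of the family look like, the 250 bases before 6 of them are printed here from the RefSeq promoter table (GRCm38.p6, the build called mm10), 5′ to 3′ on the gene's own strand, with CpG pairs in capitals. Tnf (chr17:35202008-35202257, minus strand), Tnfsf10 (chr3:27316827-27317076, plus strand) and Tnfrsf12a (chr17:23677450-23677699, minus strand) are the starts whose peak ranked higher in every Allo than in every Syn library. Tnfrsf11a (chr1:105780473-105780722, plus strand) and Tnfrsf14 (chr4:154928078-154928327, minus strand) are open starts with many and few CpG pairs, and Tnfrsf8 (chr4:145315165-145315414, minus strand) is a start with no peak in any library.
Tnf: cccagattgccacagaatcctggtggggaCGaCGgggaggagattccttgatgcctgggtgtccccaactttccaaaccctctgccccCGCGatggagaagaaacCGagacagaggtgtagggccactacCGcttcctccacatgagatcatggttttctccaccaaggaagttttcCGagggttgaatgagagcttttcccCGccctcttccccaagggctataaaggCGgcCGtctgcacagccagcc
Tnfsf10: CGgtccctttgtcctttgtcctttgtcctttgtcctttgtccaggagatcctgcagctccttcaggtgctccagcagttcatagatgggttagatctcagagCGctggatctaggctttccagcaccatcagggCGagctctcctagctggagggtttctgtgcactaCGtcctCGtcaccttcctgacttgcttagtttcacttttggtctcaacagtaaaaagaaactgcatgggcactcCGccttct
Tnfrsf12a: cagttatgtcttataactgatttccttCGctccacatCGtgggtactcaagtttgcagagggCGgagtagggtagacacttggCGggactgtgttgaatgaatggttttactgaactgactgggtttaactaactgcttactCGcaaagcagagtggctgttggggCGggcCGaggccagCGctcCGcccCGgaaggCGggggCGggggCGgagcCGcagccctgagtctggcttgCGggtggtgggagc
Tnfrsf11a: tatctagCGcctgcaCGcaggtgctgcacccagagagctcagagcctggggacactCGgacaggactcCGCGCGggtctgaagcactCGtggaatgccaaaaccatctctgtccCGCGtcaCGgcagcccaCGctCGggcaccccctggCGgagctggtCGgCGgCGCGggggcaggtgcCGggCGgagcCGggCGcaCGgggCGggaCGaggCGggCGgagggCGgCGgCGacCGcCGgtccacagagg
Tnfrsf14: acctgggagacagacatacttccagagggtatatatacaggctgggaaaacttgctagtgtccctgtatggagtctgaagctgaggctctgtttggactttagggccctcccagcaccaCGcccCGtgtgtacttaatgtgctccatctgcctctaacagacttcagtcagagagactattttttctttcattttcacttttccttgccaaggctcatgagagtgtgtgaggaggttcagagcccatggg
Tnfrsf8: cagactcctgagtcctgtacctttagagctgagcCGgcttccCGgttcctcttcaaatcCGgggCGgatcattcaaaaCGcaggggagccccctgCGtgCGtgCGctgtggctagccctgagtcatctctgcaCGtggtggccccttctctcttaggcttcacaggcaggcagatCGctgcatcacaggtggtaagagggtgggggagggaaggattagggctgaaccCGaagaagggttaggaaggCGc

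In all 7 libraries 19 of the 34 members (55.9%) had a peak within 1 kb of the gene start, 5 in some libraries and 10 in none. Over all protein-coding genes 61.3% were open at the start in every library and 32.1% in none, so the family's share was close to that of genes at large. No member was open at the start in 1 recipient type only, where 0.153% of all genes were. Starts came from the RefSeq table for 27 members, and either gene end was used for the other 7 (Tnfsf4, Tnfsf9, Tnfsf12, Tnfrsf10b, Tnfrsf11b, Tnfrsf22 and Tnfrsf26). For Tnfsf12 the peak found in all libraries is that at the start of Tnfsf13, its neighbour. At the other end of Tnfsf12, where the read-through gene Tnfsfm13 begins, 5 of the 7 libraries had a peak, at list percentiles of 1.15 to 20.4, so the start of Tnfsf12 may not be open in every library.

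**Figure D1:**
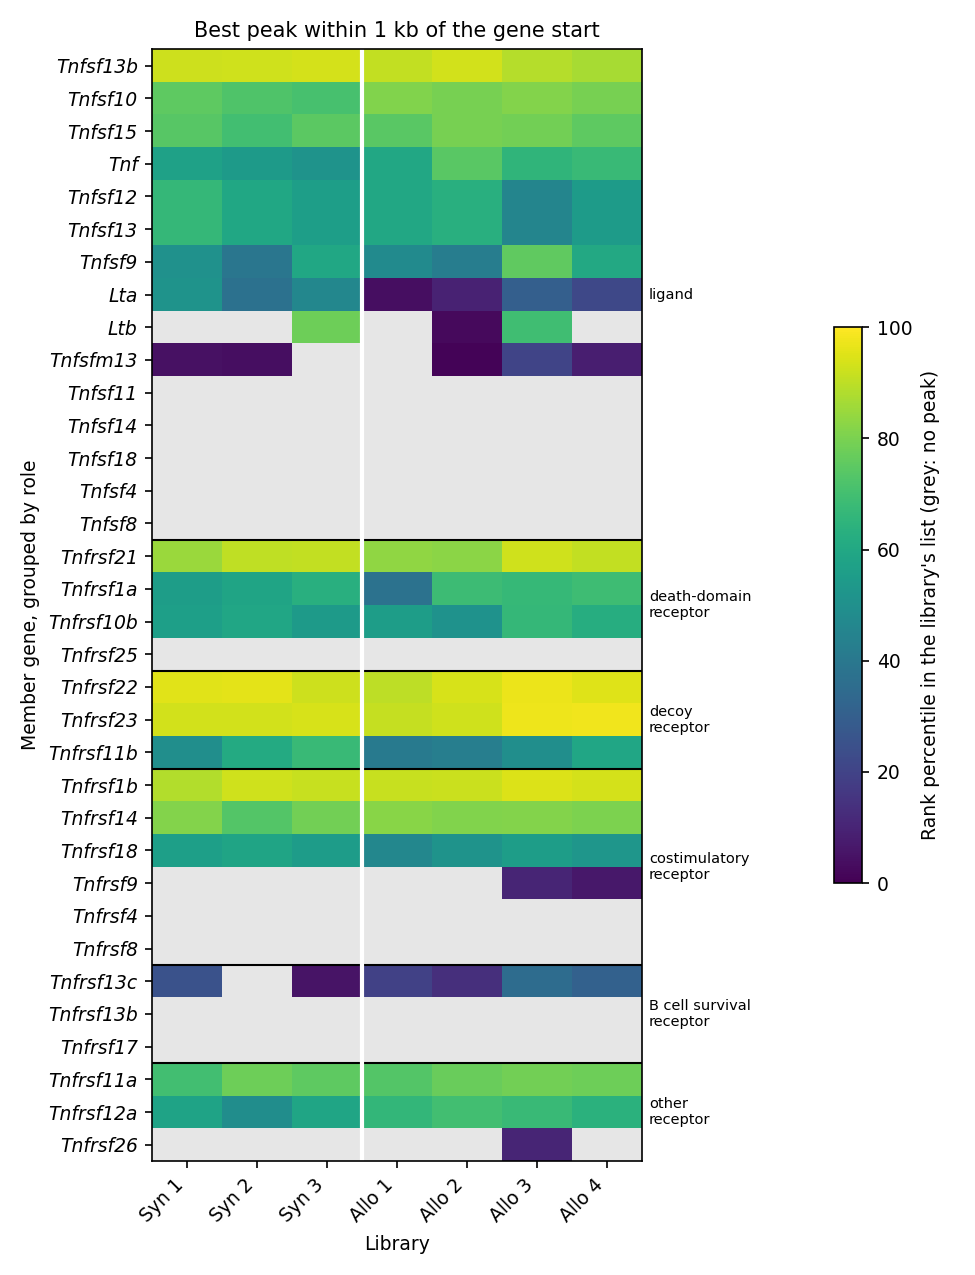
Best peak within 1 kb of each member's gene start (rows, grouped by role) in each library (columns), coloured by its rank percentile in that library's list of peaks, where 100 is the peak with the highest −log10 q and grey is no peak. 19 rows are coloured in all 7 columns and 10 are grey throughout, and no row is filled in all libraries of 1 recipient type and empty in the other.

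Open starts were also counted by role, as a description with no test, since a role holds only 3 to 15 genes. Over all protein-coding genes 61.3% were open at the start in every library. Of the 15 ligands, 8 were open in all libraries, 2 in some and 5 in none. The 8 open ones were Tnf, Lta, Tnfsf9, Tnfsf10, Tnfsf12, Tnfsf13, Tnfsf13b and Tnfsf15. Of these, Tnfsf12 was counted only through the peak at the start of Tnfsf13. Lta was counted through a peak within 1 kb that did not cover its start. The 5 closed ones were Tnfsf4 (OX40 ligand), Tnfsf8 (CD30 ligand), Tnfsf11 (RANKL), Tnfsf14 (LIGHT) and Tnfsf18 (GITR ligand). Of the 4 death-domain receptors, 3 were open throughout, namely Tnfrsf1a (TNF receptor 1), Tnfrsf10b (the TRAIL receptor) and Tnfrsf21 (DR6), and Tnfrsf25 (DR3) was closed at its start. A Tnfrsf25 region held by all libraries lay just outside the 1 kb window, with its summit 1470 bp past the start. All 3 decoy receptors (Tnfrsf11b, Tnfrsf22 and Tnfrsf23) were open in every library. Of the 6 costimulatory receptors, Tnfrsf1b, Tnfrsf14 and Tnfrsf18 were open throughout, Tnfrsf9 in Allo 3 and Allo 4 only, and Tnfrsf4 and Tnfrsf8 in none. None of the 3 B cell survival receptors was open in all libraries: Tnfrsf13c had a peak in 6 of 7, and Tnfrsf13b and Tnfrsf17 in none. Tnfrsf11a (RANK) and Tnfrsf12a (the TWEAK receptor) were open throughout, and Tnfrsf26 had a start peak in Allo 3 alone. Tnfrsf4 and Tnfsf18 were the only members with no region at all in any library.

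For comparison, all 38 genes of a list of signalling genes downstream of the receptors (TRAF adaptors, RIP kinases, caspase-8, the IKK complex and NF-kappaB subunits) were open at the start in all 7 libraries. Of 12 superfamily genes with other symbols, 8 were open in all libraries, among them Fas, Ltbr and Cd40, and 4 in none, among them Fasl and Cd40lg. Fasl, which encodes the death ligand of cytotoxic T cells, nevertheless had 4, 4 and 4 assigned regions in Syn 1 to 3 and 2, 3, 4 and 4 in Allo 1 to 4.

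The highest ranking start peaks belonged to the decoy receptors Tnfrsf22 and Tnfrsf23, to Tnfsf13b (BAFF, a survival factor for B cells), to Tnfrsf1b (TNF receptor 2) and to Tnfrsf21. The Tnfrsf22 start peak stood at percentile 95.5, 95.9 and 92.4 of its own list in Syn 1 to 3 and at 90.1, 94.0, 97.1 and 94.9 in Allo 1 to 4. Tnfrsf1b stood at 88.6, 92.7 and 91.8 in Syn and at 91.8, 92.2, 94.9 and 93.4 in Allo libraries. In both genes the recipient types overlapped, and the level was high in every pool. Tnfrsf1a, the receptor through which soluble TNF can cause cell death, ranked lower. Among regions held by all 7 libraries, its start region was at percentile 37.9, 40.03 and 44.7 in Syn and at 26.1, 52.9, 43.6 and 50.04 in Allo libraries. Allo 1 was the lowest of the 7 and Allo 2 the highest, so the recipient types overlapped. On the same scale the region over an end of Tnfrsf10b, which binds TRAIL, was at 33.2 to 41.3 in Syn and at 28.95 to 45.6 in Allo libraries, again with overlap.

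CpG pairs are common at the starts of broadly used genes, and their number was counted in the 250 bases before each start as a description. Over all genes, the 250 bases before a start held a median of 17 CpG pairs where a peak covered the start in all 7 libraries (11469 starts), 9 where it did in some (1473) and 2 where it did in none (8102). In the family the medians were 7 (14 starts of 13 genes, range 2 to 31), 4 (3 starts) and 6 (13 starts, range 4 to 14). Open family starts thus reached from 2 CpG pairs in Tnfrsf14 and Tnfrsf18 to 31 in Tnfrsf11a, as the printed sequences show, and Tnfrsf8 was closed with 12. These are base counts in a fixed window, and several members have more than 1 start. Here a peak had to cover the start, which is narrower than the 1 kb used above. Lta, open within 1 kb in all 7 libraries, is thus among the starts with no peak.

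**Figure D2:**
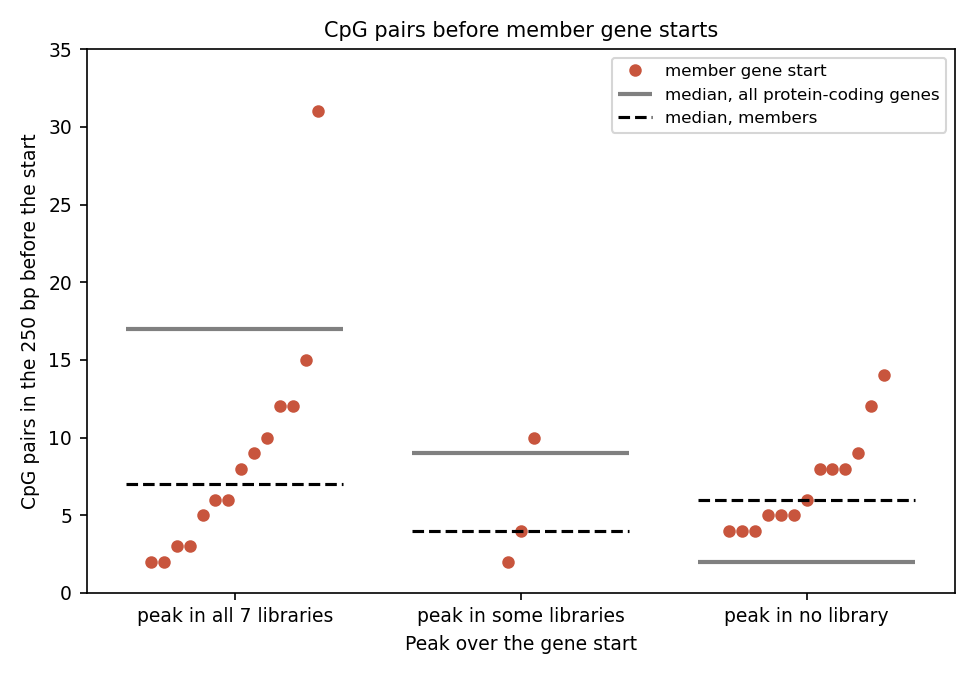
CpG pairs in the 250 bases before each member gene start (points), by whether a peak covered the start in all 7, some or none of the libraries; dashed black lines are the members' medians (7, 4 and 6) and grey lines those of all protein-coding genes (17, 9 and 2). Open and closed member starts overlap over most of their range, while the medians of all genes lie far apart.

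A search of both strands of the same 30 family windows was made for 5 short motifs, each of which was in a larger share of the family's windows than of all windows; this is a description of few windows, with no test. The kappaB letters, GGGA and TTTCC with any 1 base between, were in 1 window (3.33%), that of Ltb, and in 0.375% of the 21044 windows of all genes. The AP-1 letters TGANTCA were in 5 of 30 family windows, or 16.7% (Tnfrsf8, Tnfrsf9, Tnfsf13, Tnfsf13b and Tnfsf14) and in 6.17% of all. The GAS letters TTCNNNGAA, of the kind STAT factors bind, were in 7 windows (23.3%, against 6.64% of all), and the interferon element, GAAA and GAAA with any 2 bases between, in 4 (13.3%, against 2.98% of all), namely Tnfrsf14, Tnfrsf17, Tnfrsf1b and Tnfsf13b. TATAAA was in 6 windows (20%, against 11.7% of all), in Tnf beginning 29 bases before the start. No matches within a window overlapped each other, and a match is a string of letters, not a bound site.

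Turning to all regions of the family, 85 of 170 (50%) were held by all 7 libraries, against 48.5% of all regions, 54 by 2 to 6 libraries and 31 by 1 library. Of these 31, 19 were in Allo 3 or Allo 4. The number of family regions was 118, 120 and 118 in Syn 1 to 3 and 101, 119, 141 and 125 in Allo 1 to 4. Per 10000 regions of the library this was 16.7 ± 0.53 (SD, n = 3) in Syn and 16.5 ± 0.41 (SD, n = 4) in Allo recipients, a difference smaller than either spread. Tnfrsf21, whose product DR6 is a death-domain receptor known from neurons and T cells, had the most regions (27 in all, 15 to 17 in the Syn libraries and 12, 17, 22 and 18 in Allo 1 to 4), followed by Tnfsf10 with 14, Tnfrsf11a with 13 and Tnfrsf8 with 12. At the 50 kb limit, a Tnfrsf21 region 49446 bp from the gene was counted, with rank percentiles of 70.1 to 76.4 in Syn and 70.3 to 80.3 in Allo libraries, and the next one, 56861 bp away at 19.8 to 30.1 and 4.88 to 18.8, was not.

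One family region was held by all 4 Allo and no Syn library and 1 by all 3 Syn and no Allo library. Over all regions 1.14% were Allo-only and 1.01% Syn-only, 2.15% together, and the family's share was 1.18%, so for 170 regions the counts are near the background. The Allo-only region lay at chr16:11285504-11286391, 27022 bp from the body of Tnfrsf17 (BCMA, a survival receptor of plasma cells), and its list percentiles were 10.6, 11.9, 53.3 and 31.1 in Allo 1 to 4. It ranked low in Allo 1 and Allo 2, and it was no longer Allo-only when each list was shortened to the length of the shortest or when peaks had to cover 50% of a region. The Syn-only region lay at chr15:54291154-54291495, 12819 bp from the body of Tnfrsf11b, with list percentiles of 30.6, 33.6 and 41.9 in Syn 1 to 3.

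Ranks were then compared among the 50324 regions held by all 7 libraries, where each library ranks the same regions and percentile 100 is the highest −log10 q. In 13 of the family's 85 such regions (15.3%) the 2 recipient types did not overlap, 6 higher and 7 lower in every Allo library. Over all regions the share was 17.3% (8.41% higher, 8.86% lower), so the family's count is near the background too. At a Benjamini-Hochberg adjusted p below 0.05 over all these regions, limma, a linear model that shares the spread between regions, called 0 family regions higher and 2 lower (2.35% of 85), against 1.33% higher and 1.57% lower of all regions, or 2.9% in either direction. Unadjusted p-values were below 0.05 in 13 of the 85 (15.3%), against 19.8% of all regions. When ranks were taken within each whole list, limma called 0 family regions, and over all regions 181 were higher and 51 lower in Allo recipients, so 78% of calls were higher against 45.7% in the main comparison. The median difference, Allo minus Syn, was 2.26 percentage points in the family and 0.153 over all regions.

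**Figure D3:**
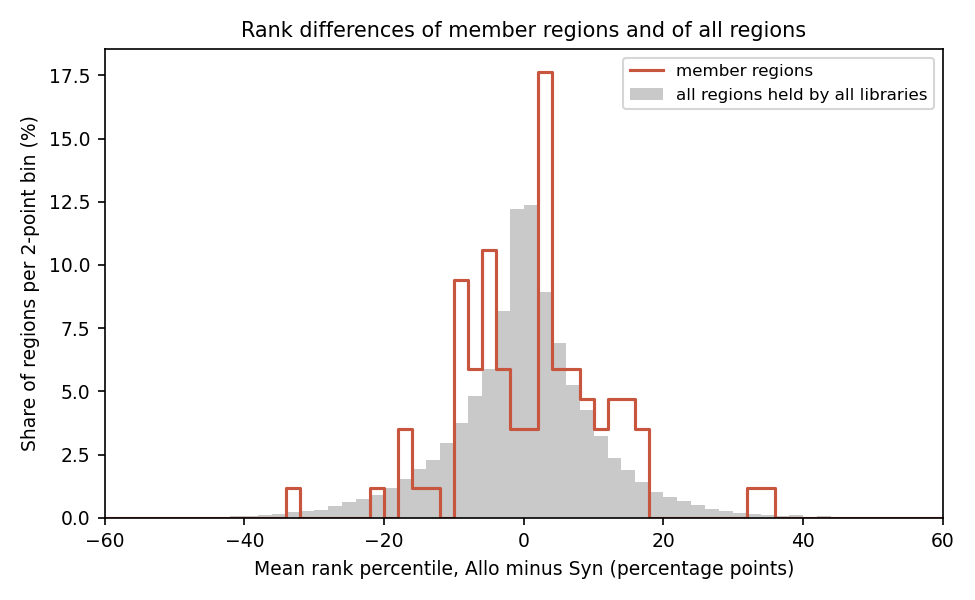
Share of regions (percent, vertical axis) in each 2-point bin of the difference in mean rank percentile, Allo minus Syn (percentage points, horizontal axis), for the 85 member regions (red outline) and all 50324 regions held by all 7 libraries (grey). The members spread over the same range as all regions, with medians of 2.26 and 0.153.

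The region called with the lowest adjusted p lay beside Tnfrsf11b, at chr15:54294233-54295504, 16704 bp from the gene body (chr15:54250619-54278484), and ranked lower in Allo recipients. Tnfrsf11b encodes osteoprotegerin, the secreted decoy that binds RANKL and TRAIL. The rank percentiles were 50, 44.6 and 40.2 in Syn 1 to 3 and 4.89, 14.4, 8.25 and 20.6 in Allo 1 to 4. All 4 Allo libraries lay below all Syn libraries, with means of 12.0 ± 6.94 (SD, n = 4) and 44.9 ± 4.91 (SD, n = 3). The difference was −32.9 points (SE 6.5, limma adjusted p = 0.0197), −35.3 for Allo 1 and 2 and −30.5 for Allo 3 and 4. The direction held in every alternative that gave a value (with 50% cover the region was not held by all libraries and gave none). Leaving out libraries could hardly reverse it, since the groups do not overlap. The call was lost with ranks taken within the whole list (−29.9, limma adjusted p = 0.13). It was also lost without Allo 3 and 4 together, without Allo 1 and without any one of the 3 Syn libraries (limma adjusted p from 0.0535 to 0.0907). The authors' fold over background at this region was 6.52, 6.14 and 6.06 in Syn 1 to 3 and 3.66, 4.80, 5.61 and 6.65 in Allo 1 to 4, and on that scale the groups overlapped.

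The rest of the Tnfrsf11b neighbourhood went in both directions. Libraries of Syn recipients held 6, 5 and 5 regions there and each Allo library held 4, which is fewer in every Allo library (exact two-sided permutation p = 0.0286, the smallest that 35 relabellings allow). Over all genes with a region 1.37% had fewer regions in every Allo library and 2.17% had more, and in the family 1 gene did each. The region over the upper end of the gene body (chr15:54278002-54279303) had percentiles of 30.3, 43.9 and 51.6 in Syn and 29.1, 19.9, 19.8 and 35.3 in Allo libraries. Its groups overlapped, and its difference of −15.9 did not pass (SE 7.52, limma adjusted p = 0.257). On the other side of the gene, the region 8668 bp away was lower in every Allo library (−8.08, limma adjusted p = 0.282) and the region 31664 bp away was higher in every Allo library (17.8, limma adjusted p = 0.157), and neither passed the test. In the region 31664 bp away, Allo 1 was at 7.11, barely above Syn 1 at 6.77. Within the whole list Allo 1 (14.29) was there below Syn 1 (21.95) and Syn 3 (24.27).

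**Figure D4:**
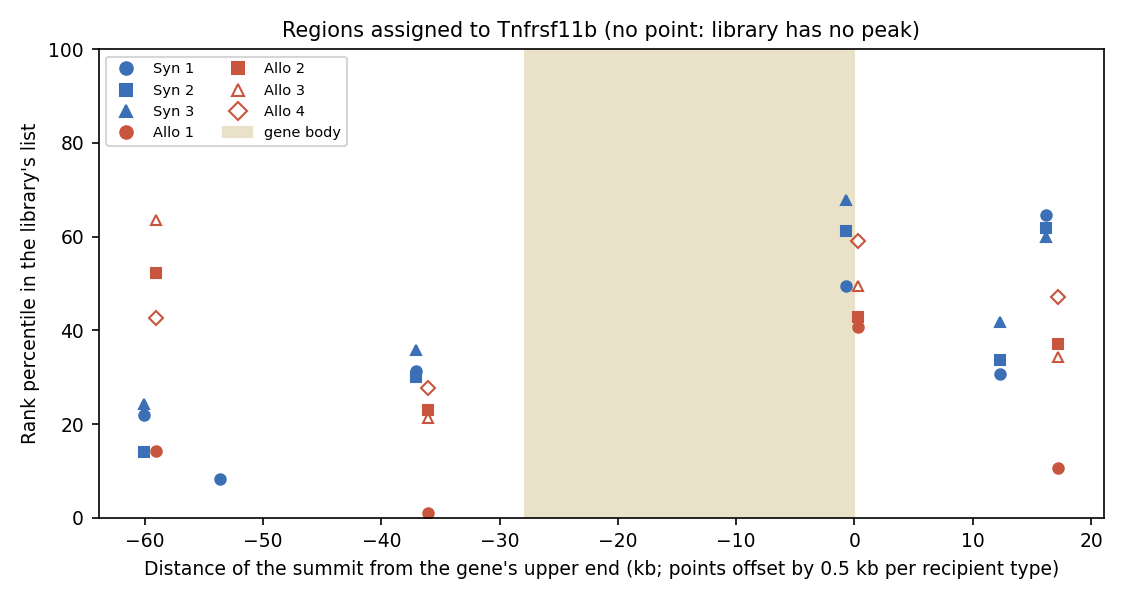
Rank percentile in the library's own list (vertical axis) of every peak region assigned to Tnfrsf11b, by the distance of its summit from the upper end of the gene body (kb, horizontal axis; shaded: gene body); blue marks are Syn and red marks Allo libraries, shifted by 0.5 kb so that they do not cover each other, and a library with no peak has no mark. The 2 regions to the right of the gene are at higher percentiles in, or held by, the Syn libraries, while the leftmost one is at higher percentiles in Allo 2, 3 and 4.

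The second region called lay beside Lta, which encodes lymphotoxin alpha, a secreted relative of TNF, in the short cluster of Ltb, Tnf and Lta on chromosome 17. It spans chr17:35205936-35206438, 555 bp from the gene body and its summit is at −782 bp from the start. The rank percentiles were 32.9, 15.8 and 23.1 in Syn 1 to 3 and 1.36, 1.24, 6.33 and 4.06 in Allo 1 to 4. Every Allo library had it near the bottom of the shared regions, with means of 3.25 ± 2.43 (SD, n = 4) and 23.9 ± 8.56 (SD, n = 3). The difference was −20.7 points (SE 5.08, limma adjusted p = 0.0439), −22.6 for Allo 1 and 2 and −18.7 for Allo 3 and 4. The authors' fold was 4.01, 3.36 and 3.89 in Syn and 2.45, 2.50, 2.99 and 2.91 in Allo libraries, again without overlap. The call is close to the threshold: the adjusted p ranged from 0.0417 to 0.148 over the alternatives, and without any one library other than Allo 2 it was lost.

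At the start of Tnf, 44 bp before it and over the first printed sequence, the peak ranked higher in the Allo libraries. This region, chr17:35201720-35202381, had percentiles of 40.2, 34.7 and 28.8 in Syn 1 to 3 and 50.6, 61.5, 41.1 and 48.0 in Allo 1 to 4. Allo 3 was less than 1 point above Syn 1, and the difference of 15.8 points (SE 7.29) did not pass (limma adjusted p = 0.246). It was 21.5 for Allo 1 and 2 and 9.997 for Allo 3 and 4. Another peak, inside the Tnf gene at chr17:35200355-35200804, was in all 4 Allo libraries at list percentiles of 41.8, 24.3, 54.7 and 52.9, and in Syn 1 alone of the Syn libraries, at 13.9. The region in the Ltb gene (lymphotoxin beta, the membrane partner of lymphotoxin alpha) was at 61.3, 64.0 and 66.5 in Syn and 64.6, 62.6, 47.3 and 61.2 in Allo libraries, with overlap. The region over the start of Tnf and the region beside the start of Lta thus had differences of opposite sign, of which limma called the one beside Lta. The 2 are unlike, since no library had a peak covering the Lta start itself.

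Other starts that ranked higher in every Allo library belonged to Tnfsf10 and Tnfrsf12a. Tnfsf10 encodes TRAIL, a death ligand that interferons are known to raise, and its start region (chr3:27316612-27317399) had percentiles of 64.6, 59.97 and 56.3 in Syn 1 to 3 and 76.3, 69.3, 67.4 and 66.9 in Allo 1 to 4. The difference was 9.68 points (SE 4.6, limma adjusted p = 0.259), 12.5 for Allo 1 and 2 and 6.87 for Allo 3 and 4. Tnfrsf12a encodes Fn14, the receptor for TWEAK, which is known to rise in injured epithelium. Its start region (chr17:23677324-23677654) had percentiles of 41.2, 26.0 and 38.8 in Syn and 57.9, 54.7, 44.7 and 42.4 in Allo libraries, a difference of 14.6 points (SE 7.35, limma adjusted p = 0.288). In each of these 3 starts, with Tnf, Allo 3 and 4 were closer to the Syn libraries than Allo 1 and 2 were, and none passed the test. The region over the start of Tnfsf13 (APRIL), which also lies at the near end of Tnfsf12 (TWEAK itself), was at 34.9 to 52.6 in Syn and 16.1 to 50.6 in Allo libraries, with overlap.

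**Figure D5:**
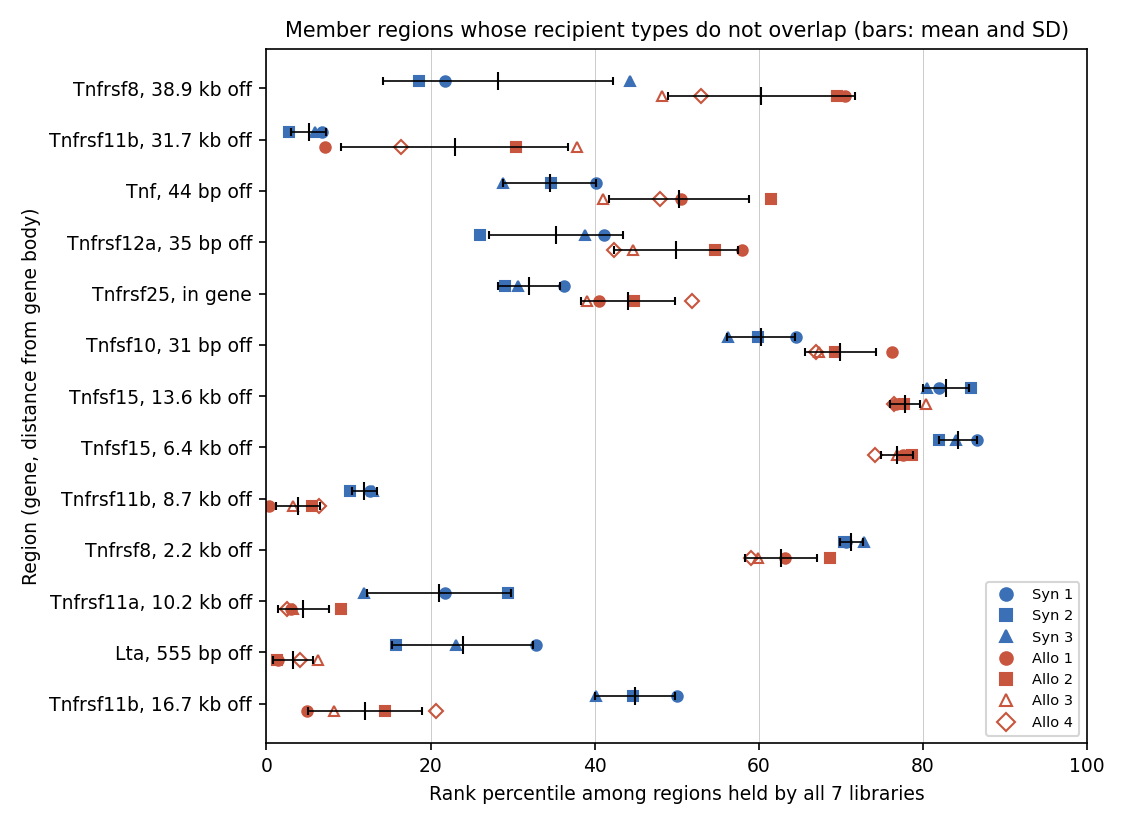
Rank percentile among the 50324 regions held by all 7 libraries (horizontal axis) for each of the 13 member regions whose recipient types do not overlap; each mark is a library (blue Syn, red Allo, open marks Allo 3 and 4), and bars give the mean and SD of a recipient type. From the top, 6 regions are higher and 7 lower in every Allo library, and limma called the lowest pair, beside Lta and 16.7 kb from Tnfrsf11b.

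Tnfrsf1b and Tnfrsf8 lie next to each other on chromosome 4, and each had a region count or a rank that was higher in every Allo library. Tnfrsf1b, the TNF receptor of regulatory and activated T cells that can also support epithelial cells, had 7, 8, 8 and 8 regions in Allo 1 to 4 against 6 in every one of the Syn libraries (exact two-sided permutation p = 0.0571). Its start region, by contrast, ranked at 83.7, 89.3 and 87.5 in Syn and 89.7, 88.2, 91.0 and 89.4 in Allo libraries, with overlap. 3 of its regions were held by some libraries, each by 1 of the 3 Syn libraries. That at chr4:145204723-145205098 had list percentiles of 3.45, 13.5, 49.8 and 29.5 in Allo 1 to 4 and 1.07 in Syn 3. That at chr4:145239163-145239691 was at 3.67, 17.7, 36.96 and 12.1 in Allo 1 to 4 and at 5.24 in Syn 2. That at chr4:145219655-145220233 was at 20.2, 47.1 and 55.5 in Allo 2 to 4 and at 29.5 in Syn 1, with no peak in Allo 1. In all 3 the highest percentile was in Allo 3 or Allo 4.

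Tnfrsf8 encodes CD30, a receptor of activated lymphocytes. Its region at chr4:145353441-145354226, 38885 bp from the gene, had percentiles of 21.7, 18.6 and 44.3 in Syn 1 to 3 and 70.6, 69.6, 48.3 and 53.0 in Allo 1 to 4. The groups did not overlap, and the difference was 32.1 points (SE 8.43, limma adjusted p = 0.054), 41.9 for Allo 1 and 2 and 22.4 for Allo 3 and 4. Inside the gene, the region at chr4:145305527-145306858 was at 0.164, 1.81 and 0.970 in Syn and at 39.1, 0.251, 59.3 and 43.3 in Allo libraries. Allo 2 was among the Syn libraries there, so the groups overlapped, and the difference of 34.5 points (SE 10.1) did not pass (limma adjusted p = 0.0776). Another region of Tnfrsf8, 2190 bp beyond the gene, was lower in every Allo library (−8.59, limma adjusted p = 0.295). The start of Tnfrsf8 had no peak in any library.

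Of the RANK and RANKL pair, the receptor was open and the ligand was closed. Tnfrsf11a had 8 regions held by all libraries, and its start ranked at 57.0, 67.5 and 62.7 in Syn and 66.5, 65.4, 62.6 and 64.0 in Allo libraries, a difference of 2.22 points (limma adjusted p = 0.846). A region 10250 bp from its body (chr1:105770108-105771083) was lower in every Allo library, at 21.7, 29.5 and 11.9 in Syn and 3.01, 9.13, 3.29 and 2.55 in Allo libraries. The difference of −16.5 points (SE 5.11) did not pass (limma adjusted p = 0.091). Tnfsf11 had a single region, in Allo 3 alone, at list percentile 10.3.

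Tnfsf15 encodes TL1A, a ligand linked to inflammatory bowel disease, and Tnfrsf25 its receptor. A pair of Tnfsf15 regions, 6381 bp and 13588 bp from the gene, ranked high in all libraries and lower in every Allo than in every Syn library. The nearer one was at 86.7, 82.0 and 84.1 in Syn and 77.7, 78.8, 76.9 and 74.2 in Allo libraries, a difference of −7.4 points (SE 2.46, limma adjusted p = 0.111). The farther one differed by −4.97 points (limma adjusted p = 0.286). On the authors' fold the groups overlapped at both. The nearer was at 8.74, 8.03 and 8.62 in Syn and 8.24, 8.65, 9.42 and 8.98 in Allo libraries. The farther was at 9.45, 9.56 and 9.71 in Syn and 9.37, 10.1, 12.0 and 11.6 in Allo libraries. Within the whole list the farther one overlapped too, with Allo 3 at 88.9 against 87.2 to 90.4 in Syn. The start region of Tnfsf15 was at 56.2 to 63.1 in Syn and 59.9 to 69.0 in Allo libraries, with overlap. Tnfrsf25 had 1 region in all libraries, inside the gene at chr4:152117359-152118178, at 36.3, 29.0 and 30.7 in Syn and 40.6, 44.8, 39.1 and 51.9 in Allo libraries. The difference of 12.1 points (SE 6.93) did not pass (limma adjusted p = 0.354).

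Tnfrsf14 (HVEM) and Tnfsf14 (LIGHT) are a receptor and ligand pair that joins T cells and mucosal epithelium. Tnfrsf14 had 9 regions, and none of its 7 regions held by all libraries separated the recipient types. Its start region was at 73.8, 60.9 and 67.5 in Syn and 77.8, 71.4, 67.6 and 68.2 in Allo libraries. Tnfsf14 had 2 regions, neither held by all libraries. In Tnfrsf21, 10 regions were held by all libraries, none without overlap, and the start was at 78.7, 85.9 and 86.3 in Syn and 79.4, 73.8, 87.0 and 84.8 in Allo libraries. Tnfrsf1a had 3 such regions, of which the one 5158 bp past the start had the largest difference (17.6, 7.02 and 16.1 in Syn, 30.0, 14.5, 35.7 and 40.3 in Allo libraries), with overlap through Allo 2.

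Among the 214 regions of the 38 downstream signalling genes, 118 were held by all libraries. Of these limma called 0 higher and 1 lower (0.847%), and 9 were higher and 9 lower without overlap (15.3%). Of the 214, 1 region was Syn-only and 0 were Allo-only. Over all regions 2.9% were called, 17.3% were without overlap and 2.15% were in 1 recipient type only, so none of these counts was above the background. The median difference was 0.11 points. The called region lay in Relb, the NF-kappaB subunit of the pathway that lymphotoxin beta receptor, RANK and BAFF receptor use (chr7:19609646-19610229). It was at 71.4, 62.9 and 76.2 in Syn 1 to 3 and 27.4, 44.9, 5.66 and 21.9 in Allo 1 to 4, a difference of −45.2 points (SE 8.72, limma adjusted p = 0.0181). Every Allo library was below every Syn library. This call was not followed through the alternatives tried for the family. The 12 superfamily genes with other symbols had 20 regions held by all libraries, of which limma called 0. Without overlap 3 were higher and 1 lower (20%, against 17.3% of all regions), and the median difference was 5.67 points.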

How the data were processed

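Omni-ATAC-seq libraries of sorted Lgr5+ cells were sequenced in pairs of 150 nt, per the labels' protocols. Trim Galore, Bowtie2, both MACS2 and MACS3, and the build mm10 are listed in the submitters' processing notes with no versions, roles or order. The authors deposited 1 peak list per library, called per library, with 4 values a peak: a score, a fold over background (a ratio), a −log10 p-value and a −log10 q-value. These are each peak's own values, in the authors' own units, and were used here to rank within a list. The deposited lists give no read counts, so depth is unknown, and the sources used here do not say how reads were shifted or filtered. The lowest −log10 q of a list was 1.3 to 1.42. The deposited fold and −log10 p were solved for each library's background pileup.

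Only autosomal and X-linked peaks were used. Those sharing 1 bp or more were merged over all 7 libraries, and each region went to the gene whose body holds the summit of its best-ranked peak, or else to the closest protein-coding gene up to 50 kb away (RefSeq, GRCm38.p6). A start was open with a peak within 1 kb. Rank percentiles of −log10 q among regions held by all 7 libraries were compared with limma 3.58.1 (R 4.3.3, with a variance trend), Benjamini-Hochberg adjusted over all 50324 regions at 0.05. Region counts per gene were compared by exact two-sided permutation over 35 relabellings. The closest libraries, Syn 2 and Syn 3, shared regions with a Jaccard index of 0.828, so none was counted as a repeat. The fit was tested on simulated data. Python 3.11.15 was used elsewhere. Groups came from the sample titles.

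The members and lists were chosen with earlier results of these data known. Named genes are 17 fixed ones, every member with a region open in 1 recipient type only or called by limma, up to 10 members per direction among those without overlap, and every member with no region. The alternatives tried were a stricter −log10 q (5 or more), lists of equal length, equal windows at summits, 50% cover, gene bodies only, a 500 bp start window, whole-list ranks, no trend, a replicate block, and leaving out libraries.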

Additional observations from a re-analysis of the deposited data

Results flagged for a closer look

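In groups of 4 Allo libraries, 18 sets of values were screened for a library far from the others, which chance flags about 1 time in 20, and 2 sets were flagged. That rate does not hold for the sets of region counts, which have ties. There a single odd count among equal ones is always flagged, and a set of equal counts never is. In the region 10250 bp from Tnfrsf11a (chr1:105770108-105771083), Allo 2 had a rank percentile of 9.13 and the other 3 Allo libraries 2.55 to 3.29, all below the Syn libraries. For Tnfrsf1b, Allo 1 held 7 regions and the other 3 Allo libraries held 8 each, against 6 in each Syn library; Allo 1 also had the shortest list, with 62977 peaks.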

How the results depend on the processing

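The 13 rank differences of regions without overlap kept their direction in all 198 of their alternatives, and none reversed. These regions were chosen because their groups do not overlap. Leaving out libraries or the variance trend could therefore hardly reverse a direction, and the count is no support for the differences. The 2 calls were not stable: a call was lost in 18 alternatives, and the region 31664 bp from Tnfrsf11b gained one without Allo 1 and 2 (25.5, limma adjusted p = 0.0398). The replicate block left 0 higher and 1 lower call in the family, the one at Tnfrsf11b (limma adjusted p = 0.0386). The deviations of same-numbered Syn and Allo libraries correlated at 0.0494, −0.0403 and 0.0539, and those of differently numbered ones at −0.0638 to 0.0476. Values this small and this close do not settle whether replicate numbers pair the samples.

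Family regions called lower by limma, 2 in the main comparison, were 1 at a −log10 q of at least 5, 1 with lists of equal length, 0 with 50% cover, 0 with whole-list ranks, 1 without a variance trend, 0 without Allo 3 and 4 together, and 0 to 2 when 1 library was left out. Regions called higher were 7 without Allo 1 and 2 (all regions: 2661 higher and 3286 lower, against 667 and 792), and 0 to 1 with 1 library left out. Over all regions, leaving out Allo 3 and 4 gave 241 higher and 201 lower, and the block 262 and 267. With 1 library left out, the calls over all regions were lowest without Syn 3 (55 and 50) and highest without Allo 2 (1572 and 2136). Ranks without overlap, 6 higher and 7 lower, became 14 and 15 without Allo 3 and 4, 22 and 18 without Allo 1 and 2, 4 lower at a −log10 q of at least 5, 4 lower with lists of equal length, and 7 to 15 higher and 7 to 13 lower with 1 library left out. Fewer libraries make non-overlap easier by construction.

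Allo-only regions, 1 in the main comparison, were 2 at a −log10 q of at least 5, 0 in gene bodies only, 7 without Allo 1 and 2, and 1 to 4 with 1 library left out. Syn-only regions, also 1, were 4 at a −log10 q of at least 5, 3 with lists of equal length, 2 with equal windows at summits, 3 with 50% cover, 0 in gene bodies only, 5 without Allo 3 and 4, 4 without Allo 1 and 2, and 1 to 4 with 1 library left out. Members with more regions in every Allo library, 1, were 2 with lists of equal length, 0 in gene bodies only, 4 without Allo 1 and 2, and 1 to 3 with 1 library left out. Those with fewer, 1, were 0 in gene bodies only, 5 without Allo 3 and 4, 2 without Allo 1 and 2, and 1 to 2 with 1 library left out. Members open at the start in 1 recipient type only, 0, were 1 without Allo 1 and 2. The cause of these shifts was not tested. The Lta region gave no value at a −log10 q of at least 5 or with lists of equal length, where not every library held it, and likewise the region 16704 bp from Tnfrsf11b with 50% cover.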
